A study of Mus musculus with 18 samples.

Results

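The docetaxel response of breast cancer cells that lack integrin β3 was read from 6 of the 18 RNA-sequencing libraries of the study, 3 from vehicle-treated and 3 from docetaxel-treated cultures of the empty vector line. These 6 were picked by their labels alone and were fitted without the other 12. PyMT-BO1 is a mouse mammary tumour line of the C57BL/6 background with a luminal B-like phenotype. Its integrin β3 gene, Itgb3, had been knocked out, and the knockout cells then received 1 of 3 retroviral constructs: the empty vector pMx, the signalling-deficient Δβ3 or a functional human β3 (hβ3). The knockout is therefore carried by the DMSO controls as well as by the treated cells. Each line was exposed for 24 h to DMSO, the vehicle, or to 10 nM docetaxel, with 3 cultures per group that the labels call biological replicates. Each construct is represented by a single line, so whatever else separates the lines enters any contrast between them. Total RNA was depleted of ribosomal RNA before library preparation, so transcripts without a poly(A) tail, such as most histone mRNAs, were captured too.

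Docetaxel is a taxane: it binds β-tubulin, holds microtubules in the polymerised state and disturbs the mitotic spindle. Cells that slip out of a failed mitosis can arrest through p53, and micronuclei or other misplaced DNA in such cells can engage cytosolic nucleic acid sensors, whose output is a set of interferon-stimulated genes. Integrin β3 pairs with αv or αIIb to bind matrix proteins and signals through its cytoplasmic tail. Breast tumour cells have been studied for how this signalling alters their response to chemotherapy.

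The 6 libraries held between 7972612 and 18154008 counts. Itgb3 itself stood at 1.50, 1.46 and 0.37 CPM (counts scaled to a fixed normalised library total) in the DMSO cultures and at 0.74, 0.97 and 0.49 CPM in the docetaxel cultures. All 6 libraries come from knockout cells and include no wild-type reference. Luminal keratins were present at a summed marker level of 2518 to 2961 CPM, nearly all from Krt8 and Krt18, while Gata3, Cldn3 and Cldn7 had no counts. Transcripts of heart muscle were also present, and their summed level differed between cultures more than between treatments: 3040, 2158 and 958.9 CPM with DMSO, and 3416, 599.6 and 716.5 CPM with docetaxel. Of 28 heart markers 19 were tested, none was called higher and 1, Atp2a2, was called lower, and Nppb had no counts. Among the docetaxel cultures, culture 1 stood apart in that marker level, where it was nearest to DMSO culture 1. It also stood apart in the length pattern given further on. Fibroblast, endothelial, adipocyte and erythroid marker sums were likewise highest in the cultures numbered 1 of both groups.

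Docetaxel changed the transcriptome in both directions. Of 10893 genes tested, 2239 (20.6%) passed the threshold of an adjusted p under 0.05 in edgeR's quasi-likelihood test, 1079 (9.91%) higher and 1160 (10.6%) lower with docetaxel. Increases were the larger ones: 315 of the genes that rose did so by at least 2-fold, against 77 of those that fell. The median log2 fold change over all genes tested was 0.008. The CPM ranges of the 3 docetaxel and the 3 DMSO cultures did not overlap for 37.6% of the genes tested. The count of called genes depended on the libraries: it was 1320 without DMSO culture 2, 1383 without docetaxel culture 3 and 2434 without docetaxel culture 1. Fitting all 18 libraries at once, with 1 shared estimate of the spread, left 440 calls, of which 432 were also called by the fit on 6 libraries and had the same direction there.

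**Figure D1:**
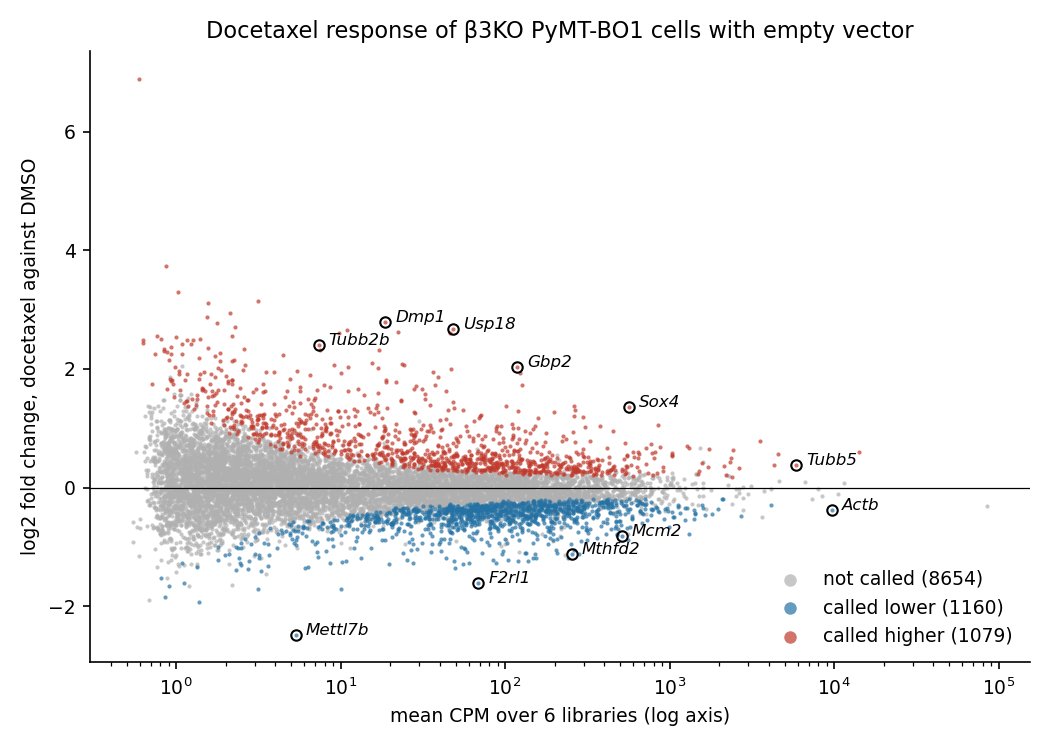
Each point is 1 of 10893 genes, with its mean CPM over the 6 libraries on a log axis and its log2 fold change (docetaxel against DMSO) on the vertical axis. Red points are the 1079 genes called higher and blue points the 1160 called lower. The uppermost point, at 6.90, is 1700007K13Rik, which had no counts in any DMSO culture, so that this fitted value is not a bound on its change.

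Among protein-coding genes with a mean of at least 2 CPM and no overlap between the groups, the 12 largest increases were those of Trp53inp1 (log2 fold change 3.14), Vtcn1 (2.95), Dmp1 (2.79), Usp18 (2.67), Ifi44 (2.66), Krt15 (2.62), Ifit3 (2.61), Dio2 (2.60), Agt (2.56), Tubb2b (2.40), Xaf1 (2.34) and Gbp9 (2.31). Usp18, Ifi44, Ifit3, Xaf1 and Gbp9 are interferon-stimulated genes. Trp53inp1 is a p53 target that promotes cell death and autophagy, and Tubb2b is a β-tubulin. Vtcn1 encodes the T cell-inhibitory ligand B7-H4, Krt15 a basal keratin, and Dmp1 a secreted phosphoprotein of mineralised matrix. Dio2 activates thyroid hormone and Agt is the precursor of angiotensin. Dmp1 stood at 3.39, 6.35 and 4.29 CPM with DMSO and at 28.6, 37.2 and 32.5 CPM with docetaxel. Krt15 stood at 5.29, 7.22 and 6.29 CPM with DMSO and at 26.4, 46.8 and 42.6 CPM with docetaxel. In both, the lowest treated culture was above the highest control by more than the range of the controls.

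The largest decreases under the same conditions included those of Mettl7b (-2.48), Siglecg (-1.71), Prss2 (-1.71), F2rl1 (-1.62), Ung (-1.40), Stc2 (-1.40), Mcm10 (-1.37), Rab26 (-1.36), Hist1h3h (-1.35), Hist1h2ao (-1.34) and Klf2 (-1.29). F2rl1 encodes the protease-activated receptor 2, Ung removes uracil from DNA, and Mcm10 helps to start replication forks. F2rl1 stood at 105.0, 104.4 and 102.0 CPM with DMSO and at 33.5, 35.1 and 32.9 CPM with docetaxel (adjusted p = 8.81e-07). Mettl7b, a membrane methyltransferase, stood at 9.17, 8.68 and 9.33 CPM with DMSO and at 1.49, 1.72 and 1.63 CPM with docetaxel (adjusted p = 1.17e-05). Values within each group of these last 2 genes were close together and the groups lay far apart. Calls for 4 of these genes rested on single libraries. Stc2 was not called without DMSO culture 1 or 2 or docetaxel culture 2 or 3 (adjusted p 0.0768, 0.133, 0.0631 and 0.129). Prss2 was not called without DMSO culture 1 or 2 or docetaxel culture 2 (0.0551, 0.0569 and 0.0542). Hist1h2ao was lost without either culture numbered 2 (0.0593 and 0.0542) and Mcm10 without DMSO culture 3 (0.0868).

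Interferon-stimulated genes rose as a group. Of 125 listed genes of the interferon pathway 69 were tested, 41 rose and none fell, against 9.91% of all genes tested that rose and 10.6% that fell. The median log2 fold change of the tested members was 1.01. Effectors were higher in 24 of 35 cases, and 7 of 12 sensors and adaptors, 5 of 7 negative regulators, 3 of 10 transducers and 2 of 5 tested ligands and receptors were higher too. In the 3 docetaxel cultures the median member lay 0.77, 0.97 and 0.89 above the DMSO mean on the log2 CPM scale, culture 1 lowest. Without both cultures numbered 1 the count was 48 higher and none lower.

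A promoter sequence is shared by many of these genes. The interferon-stimulated response element (ISRE) is bound by IRF proteins. It was searched as GAAA, any 2 bases and GAAA again, on both strands of the window from 250 bases before to 50 after each gene start, in RefSeq promoters of GRCm38.p6, which held an entry for 7246 of the tested genes. The letters were present in 15 of the 30 interferon pathway genes that rose and had an entry (50%), in 24 of 55 tested members with an entry (43.6%) and in 3.51% of all tested genes. Overlapping matches were counted once per gene, and 2.96% of all 8914 promoter windows held 1 or more. A match is a description of the sequence and not evidence of binding. Windows are shown for 6 members of the interferon and GTPase lists. These have the largest increases among called members with the motif wholly before the gene start. Each window runs 5′ to 3′ on the gene's strand, with every match to the motif or to its reverse complement in capitals:
Trim30d, chr7:104507856-104507915, minus strand: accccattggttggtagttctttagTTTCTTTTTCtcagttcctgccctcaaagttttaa
Ifit3, chr19:34583382-34583441, plus strand: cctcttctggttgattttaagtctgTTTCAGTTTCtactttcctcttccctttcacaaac
Cxcl10, chr5:92349068-92349127, minus strand: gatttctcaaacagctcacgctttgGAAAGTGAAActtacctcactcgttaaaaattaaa
Igtp, chr11:58199497-58199555, plus strand: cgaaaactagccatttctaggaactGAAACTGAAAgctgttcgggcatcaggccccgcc
Gbp3, chr3:142559980-142560039, plus strand: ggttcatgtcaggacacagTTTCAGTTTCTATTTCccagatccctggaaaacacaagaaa
Isg15, chr4:156200850-156200909, minus strand: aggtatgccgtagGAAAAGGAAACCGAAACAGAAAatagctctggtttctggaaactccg

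Isg15 and Gbp3 carry overlapping copies, so that their capitals run beyond a single match. Trim30d was picked by this window rule after its values were known; it was nearly silent with DMSO (0.20, 0 and 0.15 CPM) and stood at 2.23, 1.61 and 1.03 CPM with docetaxel.

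Usp18, which removes ISG15 from proteins and restrains the interferon receptor, lies at chr6:121245906-121270917 on the plus strand (mm10). Its level was 15.2, 11.2 and 13.3 CPM with DMSO and 82.3, 84.2 and 83.8 CPM with docetaxel, a 6.35-fold increase (log2 2.67 ± 0.11 SE, adjusted p = 3.32e-07). All treated cultures were close together and far above every control. Ifit3, which acts with Ifit1 on viral RNA, went from 13.2, 12.3 and 13.7 CPM to 64.0, 95.1 and 79.4 CPM (2.61 ± 0.14, adjusted p = 1.99e-06). Ifit1 went from 53.3, 51.5 and 48.8 CPM to 169.1, 212.1 and 207.2 CPM, a log2 fold change of 1.94. For both genes docetaxel culture 1 was the lowest of the treated cultures, and no treated value fell among the controls. Isg15, the ubiquitin-like modifier, rose by 2.08 and Oas3, a sensor that activates RNase L, by 1.62 on the log2 scale.

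Signalling genes of the pathway rose less evenly. Stat2, which carries the signal of the type I receptor to the nucleus, rose by 1.63. The RNA helicase regulator Dhx58 rose by 1.73, the ubiquitin ligase Trim30a by 1.72 and the receptor chain Ifnar1 by 0.40. Irf1 gave 0.85 with an adjusted p of 0.123, and Ifih1, the MDA5 sensor, gave 0.57 with an adjusted p of 0.479, so that neither passed; both were named after their values were seen. The interferon genes Ifnb1 and Ifna4 had 11 and 3 counts over the 6 libraries, and the transcription factor Irf7 had none. Rpl30 and Canx, which all cells use, also stand at 0 in this table, so that a count of 0 is not read as absence. Leukocyte markers had a summed level of 45.2 to 51.9 CPM with DMSO and of 58.7 to 68.4 CPM with docetaxel, and their part in the result was not tested. Of 15 such markers 4 were tested. Cd14 was called higher with an adjusted p between 0.104 and 0.194 in 5 of the 6 fits that leave out a library, and Cd68 with 0.0566 without docetaxel culture 3, while Cd3e, Cd8a, Ms4a1 and Adgre1 had no counts.

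The interferon-inducible GTPases, which attack vacuoles of intracellular pathogens, rose in all 6 of 6 tested members (20 listed), with a median of 2.09. Gbp2 stood at 46.3, 44.4 and 48.3 CPM with DMSO and at 189.4, 197.7 and 184.6 CPM with docetaxel, a 4.11-fold increase (log2 2.04, adjusted p = 1.27e-07). Irgm1 went from 70.1, 67.8 and 71.3 CPM to 156.3, 184.1 and 170.7 CPM. Neither gene overlapped between groups. All 5 members that rose and had a promoter entry held the ISRE letters. Because guanylate-binding proteins, Ifit genes and Oas genes have close paralogs, and how shared reads were counted is not given in the labels, the split of counts within each family is uncertain.

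Antigen presentation rose in part. Of 32 listed class I genes 20 were tested, 9 rose and 2 fell, with a median of 0.33. Tap2, a subunit of the peptide transporter, went from 11.9, 10.4 and 10.7 CPM to 26.4, 23.1 and 25.1 CPM (log2 1.18). Psmb8, an immunoproteasome subunit, went from 1.20, 1.60 and 1.48 CPM to 3.46, 5.05 and 4.71 CPM (log2 1.62, adjusted p = 0.00164). Nlrc5, the transactivator of class I genes, rose by 1.19 and the class Ib chain H2-T23 by 1.16. The proteasome activator Psme3 fell by 0.45. Of 28 tested chemokines and secreted inflammatory factors 7 rose and 4 fell, against 9.91% and 10.6% of all genes tested. Cxcl10 went from 0.20, 0.36 and 0.52 CPM to 2.60, 2.47 and 1.46 CPM, while Cxcl12 fell by 0.73 and Mif by 0.63. The call for Mif was lost without DMSO culture 3 (adjusted p = 0.0597). Nfkbia, the inhibitor of NF-κB, rose by 0.56.

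**Figure D2:**
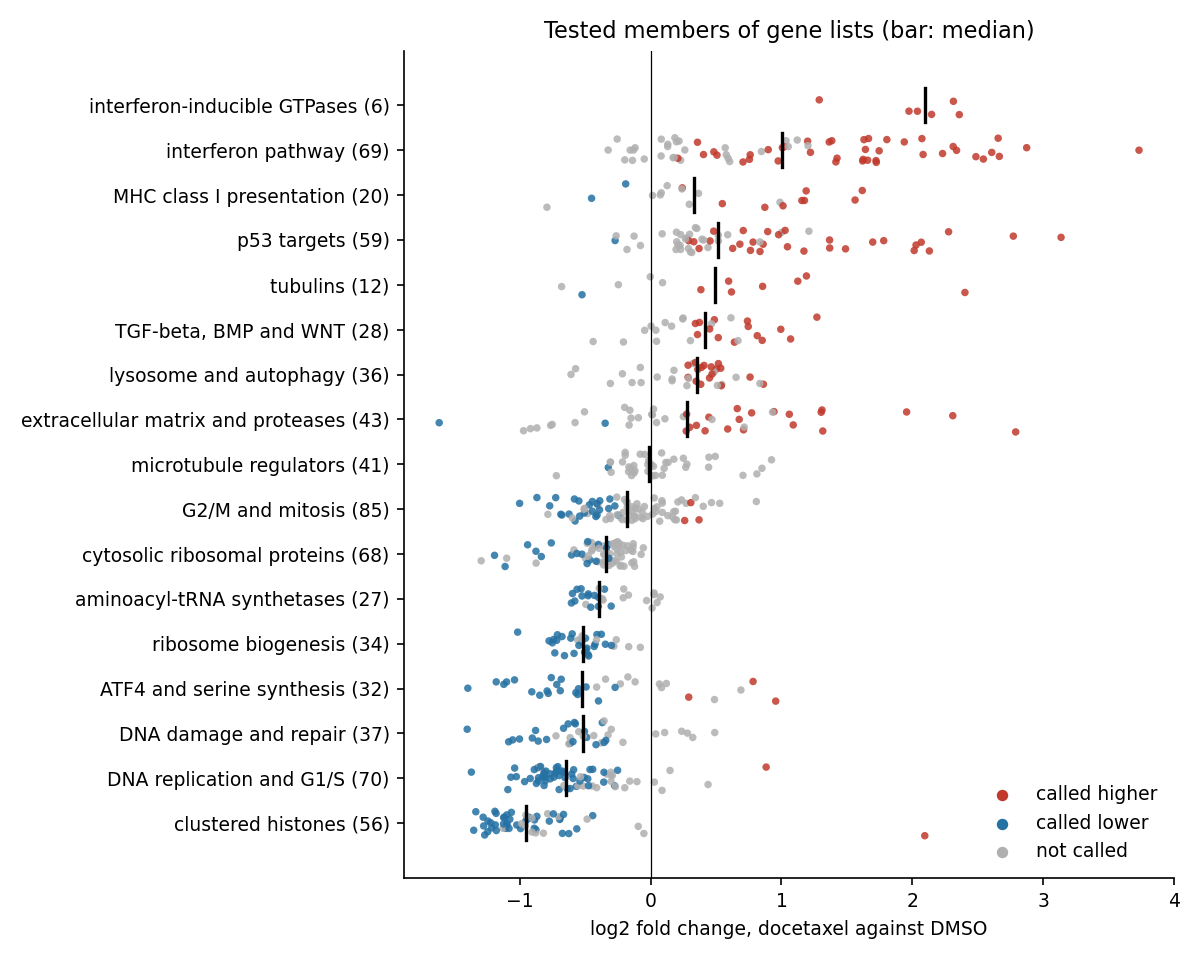
Each point is a tested member of the gene list named at the left, with the number tested in parentheses, at its log2 fold change (docetaxel against DMSO). Black bars are list medians; they run from -0.96 for clustered histones to 2.09 for interferon-inducible GTPases, and red and blue mark genes called higher and lower.

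Genes that p53 activates rose as a group. Of 75 listed p53 targets 59 were tested, 29 rose and 1 fell, with a median of 0.52 against 0.008 for all genes, and 54 of the 59 had a positive value. Cell cycle arrest genes gave 8 of 14 higher, feedback genes 4 of 6, apoptosis genes 4 of 10, and genes of stress, metabolism and repair 13 of 29. The median member was above the DMSO mean by 0.47, 0.65 and 0.57 in the 3 docetaxel cultures. Several listed targets are shared with other stress programmes, so that the list does not stand for p53 activity alone.

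Among arrest genes, Gadd45a, which holds cells in G2, stood at 8.48, 9.05 and 8.07 CPM with DMSO and at 23.4, 36.2 and 28.4 CPM with docetaxel (log2 1.78, adjusted p = 2.81e-05). Btg2, an antiproliferative factor, went from 19.9, 16.7 and 15.1 CPM to 45.2, 51.7 and 48.1 CPM. Both were separated from the controls in every culture. Cdkn1a, the CDK inhibitor p21, had few counts in this table and went from 1.90, 3.06 and 2.00 CPM to 3.96, 4.94 and 5.31 CPM (log2 1.03 ± 0.26 SE, adjusted p = 0.0167). That call did not hold without DMSO culture 1 or 3 or docetaxel culture 2 or 3 (adjusted p 0.057, 0.0674, 0.0534 and 0.0931). Ccng1, a feedback regulator of p53, went from 1079, 971.9 and 857.8 CPM to 1703, 1544 and 1505 CPM (log2 0.71). Zmat3, an RNA-binding target, rose by 0.76. Mdm2, the ubiquitin ligase of p53, gave 1.00 ± 0.53 with an adjusted p of 0.221; its counts come from 4 transcript models and reached at most 1.61 CPM in any library.

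A p53 element was searched as 2 consensus blocks of 10 bases with up to 13 bases between them. A mismatch was allowed in each block outside its fixed C and G, and a match is not evidence of binding. Promoter windows of 2 called p53 targets held such a match, out of 21 with an entry (9.52%), against 2.70% of all tested genes. They are the arrest gene Cdkn1a and the feedback gene Ccng1, each with a mismatched base and shown with the element in capitals:
Cdkn1a, chr17:29090903-29090972, plus strand: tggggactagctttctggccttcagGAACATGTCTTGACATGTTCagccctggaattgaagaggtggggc
Ccng1, chr11:40755437-40755506, minus strand: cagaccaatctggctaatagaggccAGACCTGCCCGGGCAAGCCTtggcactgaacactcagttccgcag

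Some death genes rose. Pmaip1 (NOXA), a BH3-only protein that neutralises MCL1, stood at 4.59, 3.43 and 4.22 CPM with DMSO and at 14.8, 11.5 and 13.3 CPM with docetaxel, a 3.24-fold increase (log2 1.70 ± 0.18 SE, adjusted p = 7.94e-05). Bbc3 (PUMA) rose by 0.63. Fas, the death receptor, went from 0.80, 0.51 and 0.74 CPM to 2.85, 3.98 and 2.28 CPM (log2 2.13, adjusted p = 0.00213), and Tnfsf10, the ligand TRAIL, rose by the same amount of 2.13. None of these 4 genes overlapped between groups. Across the BCL2 family 3 of 13 tested genes rose, all BH3-only, and 3 fell: Bcl2l2, Bok and Bcl2 (-0.38, a call lost without DMSO culture 1 or 2 or docetaxel culture 2 or 3, with adjusted p of 0.072, 0.0595, 0.0739 and 0.0777). In the fits that leave out 1 library the number lower ran from 0 to 2, and Bmf, the other BH3-only gene that rose, lost its call in 5 of 6. Mcl1 (0.06, adjusted p = 0.61) and Bax (0.23, adjusted p = 0.20) did not pass. Of 30 tested death receptor and caspase genes 7 rose and 2 fell, with a median of 0.07, against 9.91% and 10.6% of all genes tested.

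Tubulin genes, whose protein is the target of docetaxel, rose with the drug. Of 12 tested tubulins 7 rose and 1 fell, with a median of 0.49, and the docetaxel cultures gave list medians of 0.51, 0.52 and 0.49. All 6 tested β-tubulins rose, 1 of 5 α-tubulins rose, and the γ-tubulin Tubg1 fell. Tubb2b, at chr13:34126748-34130466 on the minus strand, stood at 2.69, 1.82 and 2.52 CPM with DMSO and at 13.0, 11.9 and 12.2 CPM with docetaxel (log2 2.40 ± 0.20 SE, adjusted p = 1.19e-05). Tubb3, the neuronal class III isotype, went from 73.7, 86.1 and 77.1 CPM to 147.5, 132.0 and 149.3 CPM (log2 0.86). Tubb5 went from 4967, 5144 and 5237 CPM to 6543, 6733 and 6747 CPM (log2 0.38 ± 0.06 SE, adjusted p = 0.000901). The change in Tubb5 was small, but the lowest treated culture lay above the highest control. Tubb4b rose by 0.60, Tubb6 by 0.62 and Tubb2a by 1.13, the last with few counts and without a call when DMSO culture 2 or 3 or docetaxel culture 1 or 3 was left out (adjusted p 0.0762, 0.101, 0.0751 and 0.0603).

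Tuba1a went from 171.9, 198.0 and 174.1 CPM to 410.3, 435.0 and 397.4 CPM (log2 1.19, adjusted p = 3.1e-06). Its close paralogs did not pass: Tuba1b gave -0.003 and Tuba1c 0.09, with overlapping groups. Tubg1, part of the ring complex that seeds microtubules, went from 149.4, 161.0 and 150.9 CPM down to 99.3, 106.2 and 114.7 CPM (log2 -0.53). Of 41 tested microtubule regulators, which include plus-end proteins, severing enzymes and folding factors, none rose and 1 fell, with a median of -0.02 and 20.6% of all genes called. The plus-end binding protein Mapre1 gave -0.15 with an adjusted p of 0.115.

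DNA replication genes fell together. Of 96 listed genes of replication and the G1/S transition 70 were tested, 48 fell and 1 rose, with a median of -0.65. Polymerase and fork genes fell in 16 of 21 cases, helicase and loading genes in 11 of 17, genes of nucleotide supply in 10 of 13, and G1/S control genes in 11 of 19. The 3 docetaxel cultures gave list medians of -0.70, -0.61 and -0.65. Mcm2, a subunit of the replicative helicase at chr6:88883474-88898780, went from 659.6, 669.7 and 634.5 CPM to 397.5, 365.3 and 356.3 CPM (log2 -0.81 ± 0.07 SE, adjusted p = 1.19e-05). Rrm2, which makes deoxyribonucleotides, went from 445.2, 465.7 and 481.9 CPM to 266.5, 254.2 and 247.9 CPM (log2 -0.86). Pcna, the sliding clamp, went from 266.6, 277.8 and 261.8 CPM to 138.0, 154.4 and 147.6 CPM (log2 -0.87). In all 3 genes the treated cultures kept close together and below every control.

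Among regulators of S phase entry, Ccne1, the cyclin that drives it, fell by 1.04 and the phosphatase Cdc25a by 0.77. Rb1, the brake on E2F, was the 1 member that rose, from 87.1, 70.8 and 77.4 CPM to 147.2, 136.8 and 149.5 CPM (log2 0.88, adjusted p = 5.14e-05). Any of 3 forms of the E2F site (TTTCCCGC, TTTGGCGC or TTTCGCGC, on either strand) occurred in 11 of the 38 members that fell and had a promoter entry (28.9%). It occurred in 17 of the 56 tested members with an entry (30.4%), whether or not they fell. The share was 4.25% of all tested genes and 8.36% of all genes that fell. The 4 largest decreases with a site wholly before the gene start are shown, the site in capitals on the gene's strand. Rfc3, E2f3 and Pola1 were taken in by this window rule:
Rfc3, chr5:151651209-151651243, minus strand: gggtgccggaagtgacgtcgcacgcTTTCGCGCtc
Cdc25a, chr9:109875487-109875544, plus strand: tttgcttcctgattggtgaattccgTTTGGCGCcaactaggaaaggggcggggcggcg
E2f3, chr13:29986064-29986099, minus strand: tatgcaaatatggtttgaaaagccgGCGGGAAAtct
Pola1, chrX:93632261-93632318, minus strand: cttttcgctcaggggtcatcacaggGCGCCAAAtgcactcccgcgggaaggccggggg

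Rfc3, a clamp loader subunit, fell by 0.89, a call lost without DMSO culture 2 or 3 (adjusted p 0.081 and 0.0577). The transcription factor E2f3 fell by 0.72 and Pola1, the primase-bound polymerase, by 0.68.

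Repair genes fell as well: of 42 listed 37 were tested, 20 fell and none rose, with a median of -0.52. They comprised 11 of 20 tested genes of homologous recombination and the Fanconi pathway and 9 of 17 of checkpoints and mismatch or base repair. Exo1, an exonuclease of mismatch repair and end resection, went from 203.9, 191.7 and 210.0 CPM to 109.3, 111.4 and 112.9 CPM (log2 -0.86). Msh6 fell by 0.58 and Topbp1, which activates ATR, by 0.59. An E2F site was present in 5 of the 14 members that fell and had a promoter entry (35.7%).

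Clustered histone genes, whose mRNA is made in S phase, had the lowest median of all lists. Of 67 listed 56 were tested, 42 fell and 1 rose, with a median of -0.96, and 24 fell by at least 2-fold. All 5 H1 and all 10 H3 genes fell, with 13 of 14 H2A, 9 of 14 H2B and 5 of 13 H4 genes. Hist1h3b went from 192.8, 214.7 and 208.7 CPM to 78.8, 98.5 and 94.3 CPM (log2 -1.18), and Hist1h1b from 654.1, 740.7 and 779.8 CPM to 423.0, 390.7 and 370.4 CPM (log2 -0.88). Hist1h2bc was the exception: it went from 5.38, 5.98 and 6.37 CPM to 16.3, 32.4 and 27.1 CPM (log2 2.10, adjusted p = 0.000243). The list medians in the docetaxel cultures were -1.34, -0.77 and -0.89, culture 1 lowest. Without both cultures numbered 1 the count that fell was 52. Many histone genes are near-identical copies, so reads may be split between them, and the genes are short, and fold changes went with transcript length as described further on. Their part in the histone result was not tested.

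Mitotic genes fell less. Of 85 tested genes of G2 and mitosis, 24 fell and 3 rose, with a median of -0.18. Cyclins and entry kinases fell in 7 of 17 cases and kinetochore genes in 6 of 19. Genes of chromosome structure and proliferation fell in 5 of 12. Spindle motors and cytokinesis genes fell in 3 of 25, a share close to the 10.6% of all genes tested that fell. Mybl2, which drives late cell cycle genes, fell by 1.00, and Aurkb, the kinase of the chromosomal passenger complex, by 0.54. Ckap2, a spindle protein, rose by 0.37, and Cenpf, a kinetochore protein, rose by 0.31, a call lost without DMSO culture 2 or 3 or docetaxel culture 3 (adjusted p 0.0741, 0.0568 and 0.0774). Mki67, the proliferation antigen, stood at 1013, 936.4 and 1022 CPM with DMSO and at 1027, 1010 and 1122 CPM with docetaxel (0.09 ± 0.07, adjusted p = 0.417). Ccnb1 gave -0.23 with an adjusted p of 0.396. The groups overlapped for both of the latter. The cell cycle homology region TTTGAA, searched on both strands, occurred in 40 of 66 tested members with an entry (60.6%), in 9 of the 16 that fell and had one (56.2%), and in 13.5% of all tested genes.

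**Figure D3:**
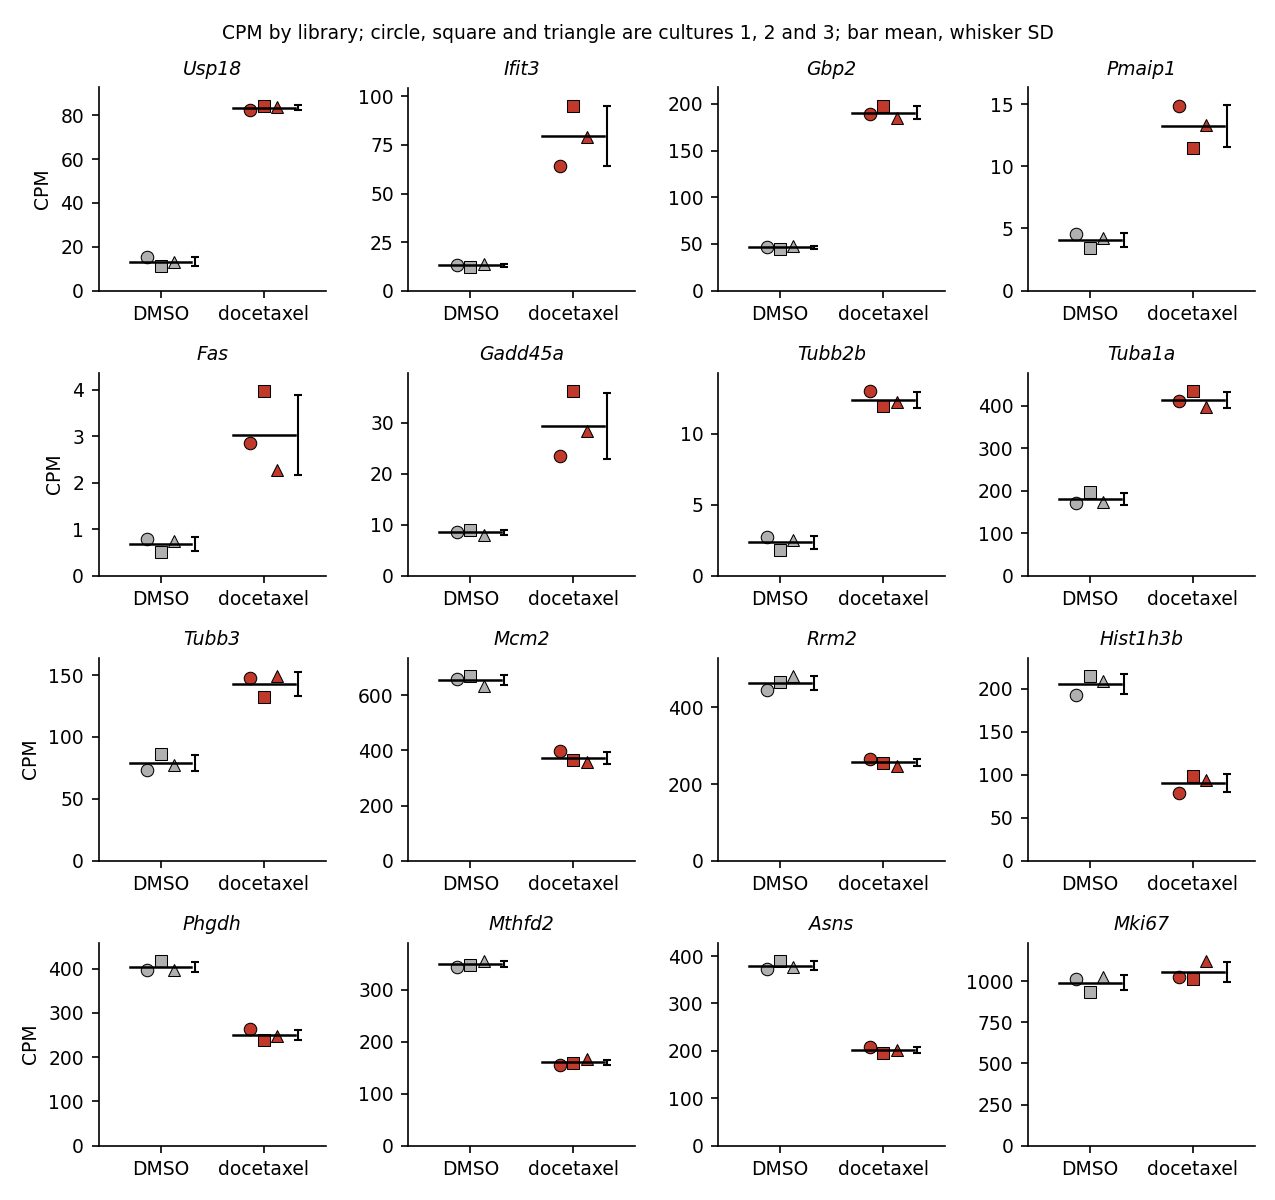
CPM of 16 genes in each of the 6 libraries, with DMSO in grey and docetaxel in red; the marker shape gives the culture, the bar the mean and the whisker the SD of 3 cultures. The groups are apart for 15 of the genes and overlap for Mki67, whose DMSO values run from 936.4 to 1022 CPM and docetaxel values from 1010 to 1122 CPM.

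Transcripts listed for serine synthesis and as targets of ATF4, the transcription factor of the integrated stress response, fell more often than they rose. Control by ATF4 was not tested. Of 42 listed genes of ATF4 output and serine synthesis 32 were tested, 19 fell and 3 rose, with a median of -0.52. Serine, glycine and one-carbon genes fell in 7 of 8 cases. Phgdh, the first enzyme of serine synthesis, went from 396.4, 417.4 and 397.4 CPM to 263.5, 239.3 and 247.4 CPM (log2 -0.69 ± 0.07 SE, adjusted p = 3.23e-05). Mthfd2, of the mitochondrial folate pathway, went from 343.6, 348.9 and 355.7 CPM to 156.1, 158.3 and 166.6 CPM (log2 -1.12 ± 0.06 SE, adjusted p = 1.99e-06). Asns, which makes asparagine, went from 372.2, 389.7 and 377.9 CPM to 209.2, 196.3 and 201.5 CPM (log2 -0.91). The groups of all 3 enzymes were far apart relative to their spread. Atf4 itself had few counts and went from 4.29, 5.25 and 3.85 CPM to 1.49, 2.36 and 2.01 CPM (log2 -1.18, adjusted p = 0.00838, and 0.0519 without DMSO culture 2). In the fit on all 18 libraries its adjusted p was 0.228. Chac1, which degrades glutathione, fell by 1.10 and the amino acid transporters Slc7a5 and Slc1a5 by 0.72 and 0.78. Against the list, the stress gene Ndrg1 rose by 0.96.

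Aminoacyl-tRNA synthetases fell in 14 of 27 tested members and rose in none, with a median of -0.39. The cytosolic enzymes accounted for 11 of 15 and the mitochondrial ones for 3 of 12. Yars fell by 0.60, Lars by 0.56 and Gars by 0.46. Ribosome biogenesis genes fell in 26 of 34 tested members and rose in none, with a median of -0.52. Nop58, a core protein of box C/D particles, went from 497.1, 554.6 and 504.4 CPM to 257.6, 331.2 and 318.6 CPM (log2 -0.78), Nop2 fell by 0.68 and Dkc1 by 0.75. In Nop58 every treated culture was below the controls, docetaxel culture 1 most so.

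Ribosomal proteins were less certain. Of 76 listed cytosolic ribosomal protein genes 68 were tested, 17 fell and none rose, with a median of -0.34. Rps18 went from 93.9, 120.3 and 91.1 CPM to 53.1, 65.2 and 61.8 CPM (log2 -0.76). The list medians were -0.75 in docetaxel culture 1 but -0.14 and -0.22 in cultures 2 and 3. The count that fell was 15 without docetaxel culture 1, 35 without both cultures numbered 1, 61 with the heart marker level as a covariate, and 0 in the fit on all 18 libraries. It ran from 2 to 17 when single libraries were left out. Many of these symbols also have processed pseudogenes and several transcript models. Oxidative phosphorylation genes fell in 10 of 31 tested members, and the count was 17 without both cultures numbered 1, 3 to 14 when single libraries were left out and 0 in the fit on 18 libraries.

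Fold changes went with transcript length among protein-coding genes with a mean of at least 2 CPM. The median log2 fold change was -0.28 for the 485 genes whose longest model is under 1000 bases and 0.19 for the 377 over 8000 bases. Between those bins it was -0.15, -0.04 and 0.09. In the shortest bin 14 genes rose and 109 fell; in the longest 97 rose and 9 fell. By library, the shortest bin lay at -0.13, 0.03 and 0.10 with DMSO and at -0.57, -0.11 and -0.20 with docetaxel, so that DMSO culture 1 was below docetaxel culture 2. In the longest bin the values were 0.08, -0.01 and -0.06 with DMSO and 0.32, 0.09 and 0.19 with docetaxel. Without docetaxel culture 1 the bin medians ran from -0.16 to 0.14, and without both cultures numbered 1 from -0.22 to 0.17. The part of length in any gene's result was not tested.

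**Figure D4:**
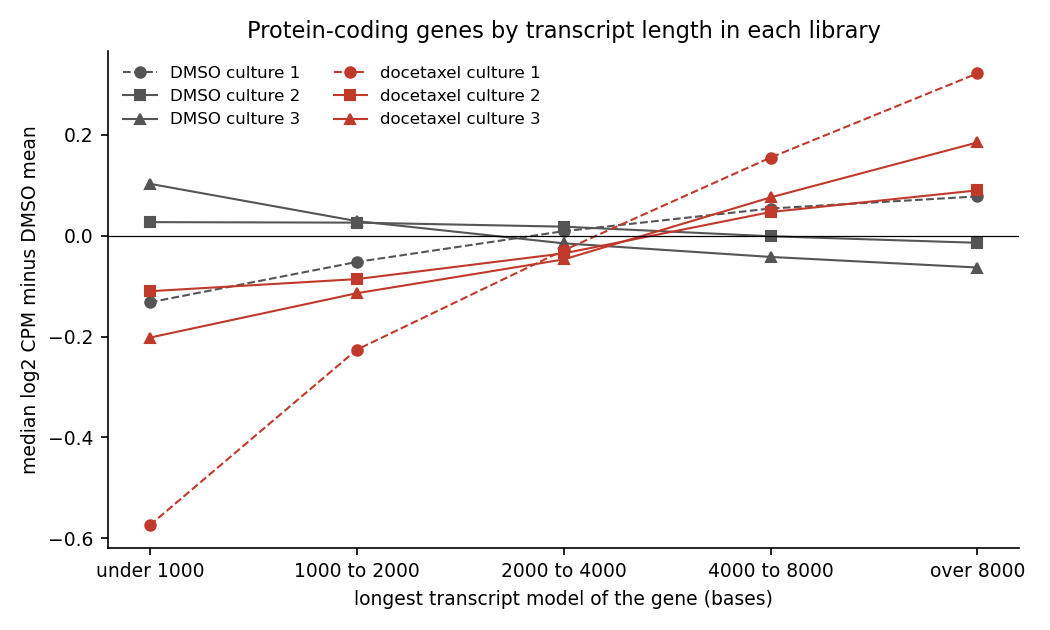
Median log2 CPM relative to the DMSO mean (vertical axis) of protein-coding genes binned by the length in bases of their longest transcript model, with 1 line for each library (grey DMSO, red docetaxel, dashed lines cultures 1). Docetaxel culture 1 has the steepest line, from -0.57 in the shortest bin to 0.32 in the longest.

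Lysosomal genes rose modestly. Of 36 tested lysosome and autophagy genes 17 rose and none fell, with a median of 0.35; they were 13 of 24 lysosomal genes and 4 of 12 autophagy genes. Ctsb, the protease cathepsin B, went from 1898, 1932 and 2046 CPM to 2781, 2773 and 2775 CPM (log2 0.50, adjusted p = 0.000159). Npc1, which exports cholesterol from lysosomes, rose by 0.54. Sterol synthesis went the other way, with 7 of 21 tested genes lower and none higher; Idi1 fell by 0.54 and Cyp51 by 0.30. Abca1, the cholesterol exporter of the plasma membrane, went from 67.8, 57.5 and 52.2 CPM to 212.9, 179.1 and 195.7 CPM (log2 1.73). It was among 4 of 22 tested ABC transporters that rose, with 2 lower, against 9.91% and 10.6% of all genes tested; without both cultures numbered 1 the counts were 4 and 4. Abcb1a and Abcb1b, the mouse P-glycoprotein genes that export taxanes, gave 1.07 (adjusted p = 0.296) and 0.11 (adjusted p = 0.902), with no library above 2.48 CPM.

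Genes of the TGF-β and activin family rose in 10 of 17 tested cases and WNT genes in 4 of 11. Of the 28 tested genes of the whole list 14 rose and none fell, with a median of 0.41. Inhbb, the activin βB subunit, went from 116.3, 126.5 and 106.4 CPM to 295.9, 277.4 and 269.4 CPM (log2 1.27). Bmp2 went from 99.1, 101.9 and 95.4 CPM to 192.5, 197.8 and 200.8 CPM. Tgfb3 rose by 0.81 and Tgfb1 by 0.75. For Inhbb and Bmp2 the treated cultures lay well clear of the highest control.

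Matrix genes rose more often than they fell. Of 43 tested extracellular matrix and protease genes 20 rose and 2 fell, with a median of 0.28. Col6a1, a chain of microfibrillar collagen VI, went from 163.5, 157.0 and 140.3 CPM to 396.7, 379.3 and 362.0 CPM (log2 1.30). Serpine2, a protease inhibitor, rose by 1.96, Timp3 by 1.31 and fibronectin (Fn1) by 1.06. Fibroblast markers showed no call in 7 tested, with a summed level of 30.6 to 81.6 CPM with DMSO and 32.1 to 96.5 CPM with docetaxel. Among 14 tested integrins 3 rose and 1 fell, against 9.91% and 10.6% of all genes tested. Itga2, the collagen receptor subunit, went from 7.58, 11.6 and 8.51 CPM to 25.9, 21.8 and 22.98 CPM (log2 1.34, adjusted p = 0.000228). Itgb4 (1.64), Itga2b (1.37) and Itga7 (-0.87) were called, but each lost its call when a library was left out. Adjusted p reached 0.0997 for Itgb4 without DMSO culture 2, 0.198 for Itga2b without docetaxel culture 3 and 0.0533 for Itga7 without docetaxel culture 3. Itgav, the partner of β3, gave 0.23 with an adjusted p of 0.11.

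Actin and growth signalling changed in parts. Of 38 tested SRF, YAP and actin genes 9 fell and 2 rose; Actb went from 10570, 10930 and 11490 CPM to 8862, 8345 and 8070 CPM (log2 -0.39). Of 33 tested immediate-early and MAPK output genes 10 rose and 2 fell, and 4 fell without both cultures numbered 1. Egr1 went from 16.4, 19.4 and 20.3 CPM to 62.3, 86.8 and 76.7 CPM (log2 2.00, adjusted p = 4.6e-06), Junb rose by 0.86 and Dusp4 by 0.51. Of 27 tested glycolysis and hypoxia genes 6 fell and 3 rose, with Pfkl at -0.48 and Pgk1 at -0.39; the count lower was 9 without both cultures numbered 1 and 4 to 8 when single libraries were left out. NRF2 targets gave 5 higher and 4 lower of 30 tested, and 10 lower without both cultures numbered 1. Iron genes gave 2 and 2 of 14. The shares of all genes tested were 9.91% higher and 10.6% lower. In the last group Slc40a1, the iron exporter ferroportin, rose by 2.02 and Steap1 fell by 1.22. Chaperones gave 1 higher and 6 lower of 26, and the count lower was 2 to 4 when single libraries were left out and 10 without both cultures numbered 1. The mitochondrial chaperonin Hspd1 fell by 0.77. Epithelial and mesenchymal genes gave 4 higher and 1 lower of 20, and Krt8, Krt18 and Vim did not pass.

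At a mean of at least 100 CPM the 8 largest increases were Gbp2, Ifit1, Abca1, Klhl24 (1.38), Notch1 (1.37), Sox4 (1.36), Col6a1 and Irgm1. Sox4, a transcription factor of progenitor states, went from 331.6, 331.6 and 287.3 CPM to 851.3, 814.3 and 769.5 CPM. Notch1 went from 58.5, 55.4 and 55.0 CPM to 163.7, 130.5 and 142.1 CPM. Of the 8 largest decreases at that level 7 were histone genes, from Hist1h2ad (-1.25) to Hist1h3g (-1.12), and the remaining 1 was Mthfd2. Hist1h2ab (-1.19) was the histone of these with the widest treated range, 99.4, 173.5 and 167.7 CPM, and its call was lost without any 1 of the DMSO cultures or docetaxel culture 3 (adjusted p 0.065, 0.0656, 0.0699 and 0.0514).

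Among genes annotated as other than protein coding, the largest increases included Mx2 (2.31), Gm12250 (1.98) and Oas1b (1.75), all of interferon-stimulated families. Malat1, a nuclear noncoding RNA, went from 10970, 10190 and 12470 CPM to 15730, 17670 and 17680 CPM (log2 0.60). Neat1, the scaffold of paraspeckles, was 629.1, 627.3 and 2303 CPM with DMSO and 1368, 2243 and 2010 CPM with docetaxel, so that DMSO culture 3 lay above all treated cultures (adjusted p = 0.592). Mir17hg, the host of the miR-17 cluster, fell by 0.78. Across 22 tested long noncoding RNAs 3 rose and 5 fell, against 9.91% and 10.6% of all genes tested.

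The response was then set against that of the same knockout cells carrying functional human β3, each line against its own DMSO cultures. Of the 2239 genes called in the empty vector line, 1946 had the same sign in the hβ3 line, and 1962 of 2238 in the Δβ3 line; no test goes with these counts. The difference in response between the empty vector and hβ3 lines, tested as an interaction over 12 libraries with edgeR, passed for 213 of 11646 genes (1.83%), 107 with a higher and 106 with a lower log2 fold change in the empty vector line. Before adjustment, 1752 genes had an unadjusted p under 0.05. The number called ran from 58 without DMSO culture 2 of the empty vector line to 395 without DMSO culture 2 of the hβ3 line. It was 129 without DMSO culture 3 and 78 without docetaxel culture 3 of the empty vector line. Leaving out hβ3 libraries gave 139 and 111 for DMSO cultures 1 and 3, and 73 and 105 for docetaxel cultures 2 and 3. The hβ3 DMSO libraries held 10.9 to 33% of their counts in the ribosomal precursor Rn45s, against 8.36 to 9.81% in the empty vector DMSO libraries; the part of this in the differences was not tested.

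Of the 213 genes, 170 were also called in the empty vector line. Plk2, a p53-responsive kinase, gave 0.98 in the empty vector line and -0.51 in the hβ3 line, a difference of 1.47 (interaction adjusted p = 2.7e-07). Scaled over the 12 libraries, its mean went from 24.75 to 48.43 CPM in the empty vector line and from 199.8 to 140.8 CPM in the hβ3 line. Starting levels of other genes here also differed: with DMSO, Thbs2 stood at 3306 against 362.4 CPM, while Egr1 stood at 16.78 against 21.13 CPM. Egr1 gave 2.00 against 0.35, a difference of 1.65. Apcdd1, a WNT inhibitor, gave -0.86 against 0.19, and Prkar2b, a regulatory subunit of protein kinase A, -0.73 against 0.40. The rule by smallest p also named BC075659 (difference 1.44), Rnf213 (1.53), mKIAA1554 (1.15), Mctp2 (-1.58), Thbs2 (-0.81), Ak5 (-0.95) and Loxl3 (-0.71). In mean CPM, BC075659, Rnf213 and mKIAA1554 each rose in the empty vector line and fell in the hβ3 line. Whether these symbols name separate loci was not tested. All genes named by that rule kept their interaction call in each fit that left out 1 library.

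By list, the interaction passed for few members. Replication and G1/S genes gave 14 of 73 with a lower and 1 with a higher log2 fold change in the empty vector line, where the list median was -0.65 against -0.32 in the hβ3 line. Mcm2 differed by -0.47 and Mcm7 by -0.49. Interferon pathway genes gave 4 of 71 higher and none lower, with medians of 1.01 and 0.50; Ifit1 differed by 0.61. Of 7 tested interferon-inducible GTPases 2 differed, Gbp2 by 0.53 and Irgm1 by 0.45. Tubulins gave 2 of 12, Tubb2b with 1.71 and Tubb3 with 0.65. p53 targets had the same median of 0.52 in both lines, and 3 of 60 differed upward and 1 downward. Medians of their subgroups were less alike. In the empty vector and hβ3 lines they were 0.87 and 0.22 for arrest genes and 0.39 and 0.58 for apoptosis genes. Feedback genes gave 0.95 and 0.99, and genes of stress, metabolism and repair 0.37 and 0.46. No test goes with these medians. The log2 fold change of Pmaip1 was higher in the empty vector line by 1.05. Scaled over the 12 libraries, its mean level there was lower. It was 3.656 CPM with DMSO and 11.76 CPM with docetaxel, against 21.33 and 33.21 CPM in the hβ3 line. Cytosolic ribosomal proteins had medians of -0.34 and -0.02, with no member past the test in 68. The difference was nevertheless negative for 64 of these 68, against 6211 of all 11646 genes tested. It was negative for 54 of 56 clustered histones, with 1 past the test, and for 30 of 31 oxidative phosphorylation genes, with 3. Whether differences between the lines went with transcript length was not tested.

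**Figure D5:**
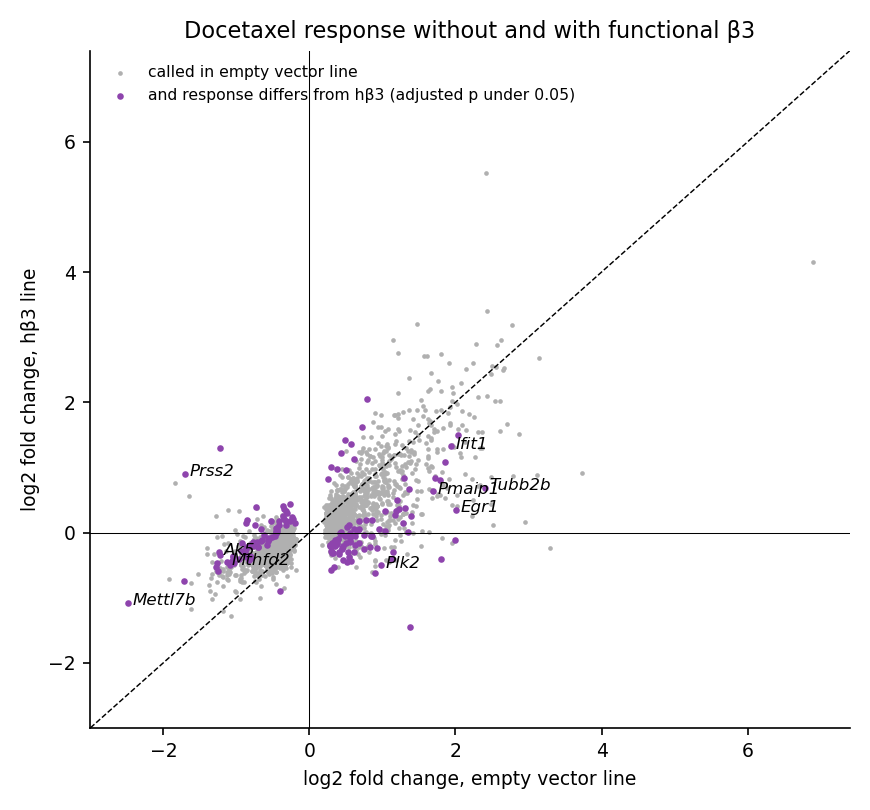
Log2 fold change with docetaxel in the empty vector line (horizontal) and in the hβ3 line (vertical) for genes called in the empty vector line; the dashed line marks equal responses. Purple points are the 170 genes that also passed the interaction test. Plk2 at 0.98 and -0.51 is below the horizontal axis, and Tubb2b at 2.40 and 0.69 is below the dashed line.

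Against the Δβ3 line the interaction passed for 0 of 11432 genes in edgeR, with 175 at an unadjusted p under 0.05, and for 0 in DESeq2, with 221. In that line 1 DMSO library held 41.5% of its counts in Rn45s and 1 docetaxel library held 3.98% in heart muscle markers. Without these 2 libraries the count was again 0, with 300 at an unadjusted p under 0.05. A count of 0 does not show that the empty vector and Δβ3 lines responded alike. Egr1 gave 2.00 in the empty vector line and 0.33 in the Δβ3 line, and Bmp2 1.00 and 0.11, neither past the test. Values of the Δβ3 line depended on the 2 libraries. Its median for the TGF-β, BMP and WNT list was 0.13 with them and 0.37 without them, against 0.41 in the empty vector line.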

How the data were processed

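RNA from 3 DMSO and 3 docetaxel cultures of the empty vector line was read by single-end sequencing of 50 bases. The authors' deposited table holds raw counts per transcript model, with the model's length in bases as another deposited value. Per the submitters' processing notes, FastQC, HISAT2 and featureCounts were used with build mm10. Tool versions, annotation, strand setting and shared-read handling were not given in the sources used here. Counts of the 63759 models were summed to 32699 symbols, 13170 of them with several models. The share of tested genes called was 24.4% for symbols with 1 model and 10.8% for those with 4 or more, whose counts were often low, so levels of different genes are not compared.

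Genes were kept by edgeR's filterByExpr and fitted on the 6 libraries with TMM normalisation and the robust quasi-likelihood test (edgeR 4.0.16, R 4.3.3), with Benjamini-Hochberg adjustment over all genes tested. SE is the log2 fold change divided by the root of its F statistic. CPM uses TMM-scaled totals. The residual spread had 4 degrees of freedom and a biological coefficient of variation of 16.4%. Differences between lines were interaction terms over 12 libraries. DESeq2 1.42.0 was an alternative. The 6-library fit was also run on simulated counts of 10893 genes. At a simulated log2 fold change of 0.5 in size, 14 of 100 changed genes were recovered, and 49 of 100 at 1. False calls numbered 13. A gene that did not pass may therefore still have changed.

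The 33 gene lists, 9 marker lists and the members were chosen with earlier results of these data known. Named genes are the largest changes by fixed rules (at least 2 CPM and no overlap, with the same at 100 CPM and for noncoding genes), the smallest p in each list and its subgroups, a short set of benchmark genes, and the smallest interaction p. Genes outside these rules, chosen after their values were seen, are Tubb2a, Tubb6, Tuba1b, Trim30d, Rfc3, E2f3, Pola1, Mcm7, Psat1, Cenpf, 1700007K13Rik, Neat1, Irf1 and Ifih1. Some genes that these rules pick are not reported here.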

Additional observations from a re-analysis of the deposited data

Results flagged for a closer look

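The docetaxel response differed between the empty vector and hβ3 lines for 213 genes by the interaction test over 12 libraries. For each gene below, the value is the log2 fold change in the empty vector line minus that in the hβ3 line. Among genes picked by the size of their change, those with the higher value in the empty vector line were Tubb2b (1.71), Nbl1 (0.78), Sox4 (0.68), Ifit1 (0.61), Gbp2 (0.53) and Irgm1 (0.45). Those with the lower value were Prss2 (-2.61), Mettl7b (-1.41), Siglecg (-0.97), Ak5 (-0.95), Rmi2 (-0.82), Pbp2 (-0.68) and Mthfd2 (-0.68). Nbl1, an antagonist of BMP ligands, and the p53 target Pmaip1 (1.05) rose in the empty vector line. Of the genes picked by smallest interaction p, Egr1 (1.65), Rnf213 (1.53), Plk2 (1.47), BC075659 (1.44) and mKIAA1554 (1.15) were higher. Whether Rnf213, BC075659 and mKIAA1554 are separate loci was not tested. Mctp2 (-1.58), Prkar2b (-1.14), Apcdd1 (-1.05), Thbs2 (-0.81) and Loxl3 (-0.71) were lower. Tubb3 (0.65), Mki67 (0.52) and Cenpf (0.46) were higher and Mcm2 (-0.47), Mcm7 (-0.49) and Psat1 (-0.69), an enzyme of serine synthesis, were lower. The interaction was recomputed without single libraries only for the genes of smallest interaction p.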

How the results depend on the processing

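For docetaxel against DMSO, every call that an alternative shared with the fit reported had the same direction. The count of 2239 was 2238 with RLE size factors, 2112 with DESeq2 (of 9836 genes with an adjusted p), 3579 with the heart marker level as a covariate, 1233 of 5398 when only symbols with 1 transcript model were tested, and 440 when all 18 libraries were fitted. It ran from 1320 to 2434 when single libraries were left out. Deviations of log2 CPM from the group mean correlated at 0.405, -0.079 and 0.396 between same-numbered cultures of both groups. DMSO culture 3 and docetaxel culture 2 gave 0.386, so the numbers were not taken as a pairing. With a replicate block 2965 genes were called, 1351 higher and 1614 lower. The interaction count of 213 between the empty vector and hβ3 lines was 431 with DESeq2 and 350 with the replicate block, and 58 to 395 without single libraries. The interaction with Δβ3 stayed at 0 in each alternative. In the fit on 18 libraries the interferon pathway had 27 genes higher, p53 targets 15, replication genes 27 lower, histones 23 and repair genes 6, and 160 of 311 called named genes lost their call. With the heart covariate Kdr, an endothelial marker, changed sign to 0.54 (adjusted p = 0.0427). Left-out libraries removed the call of 67 named genes in 1 or more fits. Of 1122 list counts over the alternatives 896 were within 1.5 times of the count reported. The cause of these shifts was not tested. Genes of few counts, such as Cdkn1a, Atf4 and the interferon genes, are measured least precisely; the cause of their low counts was not tested.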

Other observations

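The gene families given here were picked by name after their values were seen, and stand beside 9.91% of all genes tested that rose and 10.6% that fell. Mitochondrial ribosomal proteins fell in 27 of 63 tested members and rose in none (median log2 fold change -0.37), and the CCT chaperonin, which folds actin and tubulin, fell in 7 of 8 (median -0.41). Proteasome subunits fell in 20 of 33 and rose in 2, Psmb8 and Psmb9, which are also on the MHC class I list (median -0.33). Nucleoporins fell in 8 of 14 (median -0.36) and subunits of the RNA exosome in 4 of 7 (median -0.58). Upward, clustered and other protocadherins, cell surface adhesion proteins, rose in 12 of 27 (median 0.71), plexins, the semaphorin receptors, in 3 of 7 (median 0.67), and Notch receptors and ligands in 4 of 7 (median 0.41). The median longest model was 1411 bases for the mitochondrial ribosomal proteins and 8600 bases for the plexins, while that of the nucleoporins, which fell, was 5682 bases. Without both cultures numbered 1 the mitochondrial ribosomal proteins had 36 members lower, and protocadherins 11 higher and 1 lower.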
